A study of Homo sapiens with 42 samples.

Results

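The FOXO transcription factors FOXO1, FOXO3 and FOXO4 and 6 genes that FOXO factors are known to switch on were followed through a set of FLT3-inhibited leukemia cultures. The targets are IRS2, PIK3IP1, SESN1, SESN3, CCNG2 and TXNIP. Together they are 9 of the 57353 gene names in the count table, and each was found by its name in the table's gene column. All 9 passed the filter on low counts. The cells were MOLM-13, a human line from acute myeloid leukemia, in which the FLT3 receptor carries an internal tandem duplication (FLT3-ITD) and so signals without its ligand. They were kept for 12 hours in RPMI, a standard medium, or in hBMSC-CM, a mixture of equal parts of fresh RPMI medium and medium conditioned by HS-5, a stromal line from human bone marrow. The RPMI cultures received vehicle, 3 nM quizartinib (AC220, a FLT3 inhibitor) or quizartinib with 10 nM everolimus, an inhibitor of mTOR complex 1 (combo). The hBMSC-CM cultures received vehicle, quizartinib, everolimus alone or combo at the same doses. RPMI with everolimus but no quizartinib was not analysed here. Each of the 7 conditions had 3 replicates, called cultures here because the study describes biological replicates. Each replicate number had 1 library of whole-lysate RNA (input) and 1 of RNA from heavy polysomes, the sucrose gradient fraction whose messages carry many ribosomes. Libraries of the same condition and number were taken as 1 culture, which the labels do not state. All 42 libraries came from 1 cell line, all cells were treated with cycloheximide before lysis, and all libraries were selected for poly(A) RNA. The stromal medium was added without stromal cells, so contact with stroma was not modelled.

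FOXO factors are forkhead transcription factors that sit at the end of the PI3K-AKT pathway. When a receptor such as FLT3 is active, AKT phosphorylates FOXO proteins, 14-3-3 proteins hold them in the cytoplasm, and their target genes are left idle. When the kinase is blocked, FOXO proteins enter the nucleus and switch on genes for cell cycle arrest, stress defence and autophagy, and genes that feed back on insulin and PI3K signalling. This control acts on the FOXO protein, so the RNA of a FOXO gene does not measure FOXO activity, and neither phosphorylation nor localization was measured in these libraries.

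The promoters of the members were searched for FOXO-type letters because the target genes were defined by their response to these factors. RefSeq promoters of GRCh38.p14 (250 bases before to 50 after each start) were found for 9 of the 9 members and gave 16 windows. The FOXO consensus GTAAACA, or TGTTTAC on the other strand, occurred in 3 of the 16 windows, in TXNIP, PIK3IP1 and FOXO4, and in 3.42% of the 35116 windows of the genome. The insulin response element CAAAACA, searched on the other strand as TGTTTTG, occurred in 1 member window, that of IRS2, and in 4.92% of all windows. The shorter forkhead core AAACA, searched on the other strand as TGTTT, which lies inside both, occurred in 13 of the 16 and in 44.4% of all windows. The 16 windows are not independent, as FOXO3 had 4, SESN1 3, and PIK3IP1 and TXNIP 2 each. Those of PIK3IP1 overlap and share matches, so no enrichment is read from these counts. The 250 bases before the start are shown for TXNIP (chr1:145996580-145996829, minus strand) and IRS2 (chr13:109786584-109786833, minus strand), and 30 bases around the match for PIK3IP1 (chr22:31292454-31292483, minus strand) and FOXO4 (chrX:71095863-71095892, plus strand), with matches in capitals.

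TXNIP: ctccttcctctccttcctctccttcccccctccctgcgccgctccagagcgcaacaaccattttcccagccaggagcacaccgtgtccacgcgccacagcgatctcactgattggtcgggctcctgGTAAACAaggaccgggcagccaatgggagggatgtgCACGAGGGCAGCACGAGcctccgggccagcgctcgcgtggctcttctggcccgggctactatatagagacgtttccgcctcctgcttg
IRS2: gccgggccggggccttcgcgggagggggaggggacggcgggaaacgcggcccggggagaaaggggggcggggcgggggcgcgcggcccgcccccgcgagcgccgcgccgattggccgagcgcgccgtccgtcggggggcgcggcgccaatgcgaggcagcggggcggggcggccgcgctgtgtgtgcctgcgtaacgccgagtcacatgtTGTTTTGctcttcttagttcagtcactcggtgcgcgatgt
PIK3IP1: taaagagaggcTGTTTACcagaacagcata
FOXO4: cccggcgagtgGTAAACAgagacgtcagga

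In TXNIP the FOXO consensus began 124 bases before the start. The second run of capitals there, 88 bases before the start, matched the carbohydrate response element, the kind of site bound by the glucose-sensing factors MLXIP and MLXIPL, which 0.501% of all windows held. The IRS2 match began 40 bases before the start, and the PIK3IP1 and FOXO4 matches began at bases 17 and 24, counting the start itself as base 1. PIK3IP1 had 2 windows, and base 17 is counted from the start of the inner window (chr22:31292439-31292738). The window of its outer start (chr22:31292485-31292784), the gene start given below, held no FOXO consensus. A match describes letters in a window, and binding was not measured. On GRCh38 (GENCODE release 44) all 9 members are protein-coding: FOXO1 at chr13:40555667-40666641, FOXO3 at chr6:108559835-108684774, FOXO4 at chrX:71095851-71103532, IRS2 at chr13:109752695-109786583, PIK3IP1 at chr22:31281594-31292534, SESN1 at chr6:108984309-109094846, SESN3 at chr11:95165513-95232541, CCNG2 at chr4:77157207-77433388 and TXNIP at chr1:145992435-145996579.

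Library totals were 19.4 to 37.2 M counts for input and 21.5 to 38.8 M for polysomes. Levels are given as CPM (read counts scaled to a common library size, with trimmed mean of M-values factors), and differences on the log2 scale with a standard error from the fit across all genes. All 8 myeloid markers (PTPRC, CD33, SPI1, FLT3, MEIS1, HOXA9, LYZ and CSF1R) were detected in every input library. The 8 stromal markers summed to 2.39 to 7.14 CPM in the vehicle input libraries of both media and to 10.4 to 46.5 CPM under quizartinib or combo, mostly from COL1A1, while COL3A1, LUM and THY1 were at 0 in all 21 input libraries. Both stromal genes that passed the filter, COL1A1 and TAGLN, rose under quizartinib in each medium, RPMI included, and their part in the results below was not tested. The 3 everolimus-alone cultures were far more alike than the others, with a median SD of log2 CPM over genes of 0.098 in input against 0.201 to 0.312 elsewhere. Mitochondrially encoded genes took 7.05 to 10.2% of the input counts in replicate 1 of the other 6 conditions and 3.17 to 5.35% in replicates 2 and 3. The labels do not say how the cultures were run, so p-values measure the spread between these samples. The paper scaled RNA yields of input and heavy polysomes to RPMI vehicle within each biological replicate. The main fit has no term for the replicate, and fits with a replicate block are given as alternatives.

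The first question was how the members responded to FLT3 inhibition in RPMI. Input RNA was higher under quizartinib than under vehicle for 8 of the 9 members (edgeR quasi-likelihood test, adjusted p under 0.05), and none was lower. Over all 12939 genes tested, 34.6% were called in this comparison, 16.6% as higher. For all 9 members the 3 quizartinib values lay above the 3 vehicle values, as they did for 28.5% of all genes. The median log2 change was 1.57 over the members and 0.08 over all genes. PIK3IP1 and CCNG2 showed the steepest rises and IRS2, the member that was not called, the smallest difference.

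**Figure D1:**
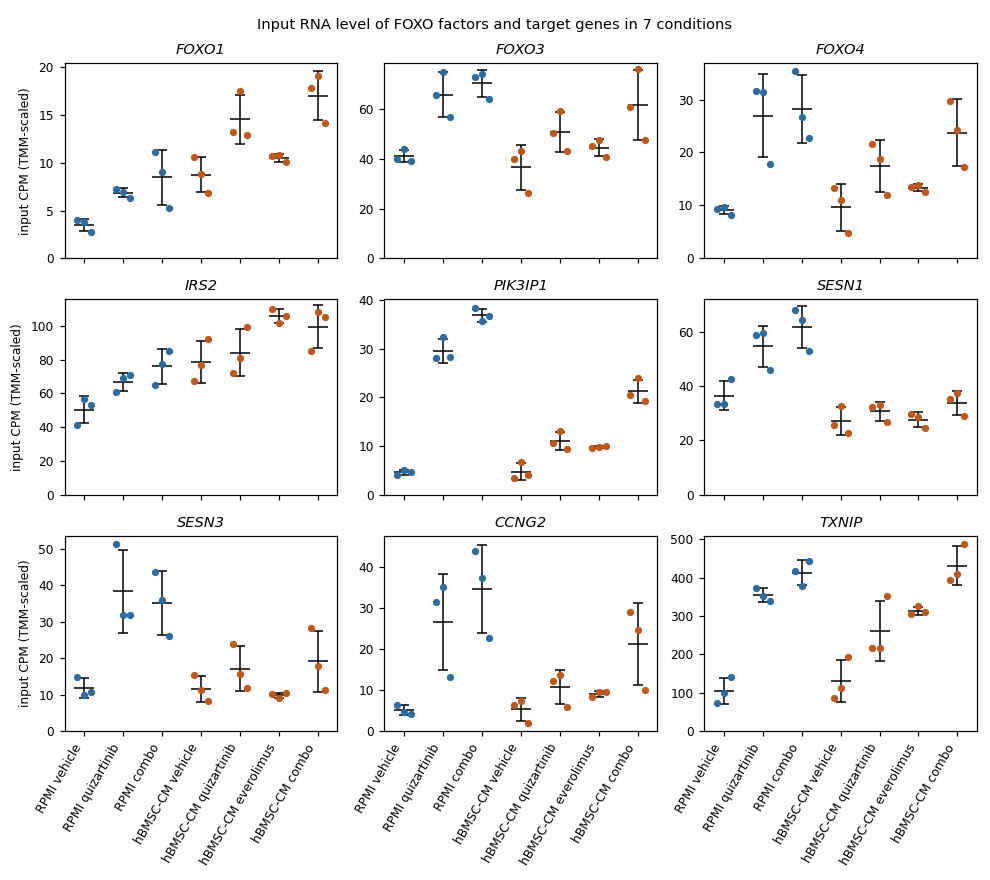
Input RNA level (CPM, TMM-scaled, linear axis from 0) of the 9 genes in the 7 conditions, 1 point per culture in the order of replicates 1 to 3, blue for RPMI and orange for hBMSC-CM, with black bars for mean ± SD (n = 3). PIK3IP1 lay at 3.96 to 5.05 CPM in RPMI vehicle and at 28.1 to 32.5 CPM in RPMI quizartinib, while FOXO1 was highest in hBMSC-CM combo.

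FOXO1, the best studied family member in insulin signalling, was the least abundant factor. It lay at 3.96, 3.76 and 2.74 CPM in the RPMI vehicle cultures and at 7.30, 6.98 and 6.33 CPM under quizartinib. The lowest quizartinib culture thus stood above the highest vehicle culture. The log2 change was 0.97 ± 0.31 (SE, adjusted p = 0.012), and it lost its call when replicate 3 of RPMI vehicle was left out (0.83, adjusted p = 0.073). FOXO1 shares 1352 exonic bases, 22.7% of its exons, with a lncRNA on the same strand that was not matched in the counts.

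FOXO3, the factor most tied to blood stem cell quiescence, was 39.9, 43.8 and 39.2 CPM under vehicle and 65.5, 74.7 and 56.8 CPM under quizartinib. The groups did not overlap, and the change was 0.68 ± 0.21 (adjusted p = 0.0093). It fell just short of the threshold without replicate 2 of RPMI quizartinib (0.58, adjusted p = 0.053) and when no filter on low counts was applied (0.70, adjusted p = 0.051). FOXO4, the smaller X-linked family member, was 9.39, 9.65 and 8.25 CPM under vehicle and 31.6, 31.4 and 17.9 CPM under quizartinib. Replicate 3 rose least but still stood above all vehicle cultures, and the change was 1.57 ± 0.40 (adjusted p = 0.0022).

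Among the feedback genes, PIK3IP1, which encodes a membrane protein that binds and restrains the catalytic subunit of PI3K, was 3.96, 5.05 and 4.77 CPM under vehicle. Under quizartinib it was 28.1, 32.5 and 28.3 CPM, a 6.45-fold rise (log2 2.69 ± 0.30, adjusted p = 1.3e-08). This was the largest change of the 9 genes, and its cultures agreed closely in both groups. IRS2, the adaptor that couples insulin and IGF1 receptors to PI3K, was 41.4, 56.4 and 53.1 CPM under vehicle and 60.8, 68.9 and 71.0 CPM under quizartinib. Its values did not overlap, yet the difference of 0.41 ± 0.28 was not called (adjusted p = 0.27).

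The sestrins, stress proteins that restrain mTOR complex 1 through amino acid sensing, differed in size of response. SESN1 was 33.3, 33.6 and 42.7 CPM under vehicle and 58.8, 59.5 and 46.0 CPM under quizartinib, a change of 0.59 ± 0.20 (adjusted p = 0.02). Its lowest quizartinib culture was close to its highest vehicle culture, both replicate 3, and the call was lost when replicate 1 or 2 of either group was left out (0.52 to 0.53, adjusted p = 0.067 to 0.088) and with no filter on low counts (0.61, adjusted p = 0.13). SESN3, the sestrin most often named as a direct FOXO target, was 14.9, 9.91 and 10.6 CPM under vehicle and 51.4, 31.8 and 31.7 CPM under quizartinib. All quizartinib cultures were more than all vehicle cultures, with a change of 1.70 ± 0.44 (adjusted p = 0.0027).

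CCNG2, an unconventional cyclin linked to cell cycle arrest, was 6.41, 4.71 and 4.06 CPM under vehicle and 31.3, 35.0 and 13.1 CPM under quizartinib. As for FOXO4, replicate 3 was the low culture, and the change was 2.39 ± 0.51 (adjusted p = 3.2e-04). TXNIP, which binds thioredoxin and limits glucose uptake, was the most abundant member at 73.3, 99.8 and 140.6 CPM under vehicle and 373, 351 and 338 CPM under quizartinib. The vehicle cultures were spread over a wider fold range than the treated ones, and the change was 1.76 ± 0.47 (adjusted p = 0.0031). Per kilobase of exon, levels in RPMI vehicle input ran from 0.586 ± 0.110 (SD, n = 3) CPM for FOXO1 and 0.682 ± 0.164 for CCNG2 to 6.16 ± 0.97 for IRS2 and 29.0 ± 9.4 for TXNIP.

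In hBMSC-CM the same drug dose was tested against vehicle. There 1 of the 9 members, PIK3IP1, was called higher, where 12.3% of all genes were called and 5.46% as higher. Vehicle and quizartinib values did not overlap for 3 members (FOXO1, PIK3IP1 and TXNIP), all higher, as for 16.9% of all genes. All 9 differences were positive, with a median of 0.73 against 0.01 over all genes. PIK3IP1 was 3.38, 6.76 and 4.07 CPM under vehicle and 10.6, 13.2 and 9.43 CPM under quizartinib, a 2.34-fold rise (log2 1.23 ± 0.29, adjusted p = 0.0051).

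The other members moved less or varied more between cultures in hBMSC-CM. TXNIP was 86.4, 111.8 and 193.5 CPM under vehicle and 215.7, 217.4 and 351.4 CPM under quizartinib, with a difference of 1.00 ± 0.46 (adjusted p = 0.15). Replicate 3 was the highest culture in both groups. CCNG2 was 6.27, 7.40 and 2.07 CPM against 12.3, 13.7 and 5.89 CPM, a difference of 1.02 ± 0.49 (adjusted p = 0.18), and replicate 3 was the lowest in both. With the replicate number as a block, which removes such shared offsets, 5 members were called: PIK3IP1, CCNG2 (adjusted p = 0.016), FOXO1 (0.045), FOXO4 (0.012) and TXNIP (0.027). With a separate block in each fraction 6 were called, FOXO3 being added (adjusted p = 0.021). The shares of all genes given above belong to the fit without a block, so the counts of 5 and 6 are not set against a background. The differences for FOXO1 (0.73 ± 0.30), FOXO3 (0.48 ± 0.21), FOXO4 (0.85 ± 0.39), SESN3 (0.56 ± 0.43), SESN1 (0.18 ± 0.20) and IRS2 (0.10 ± 0.28) had adjusted p-values of 0.10 to 0.87 without a block.

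**Figure D2:**
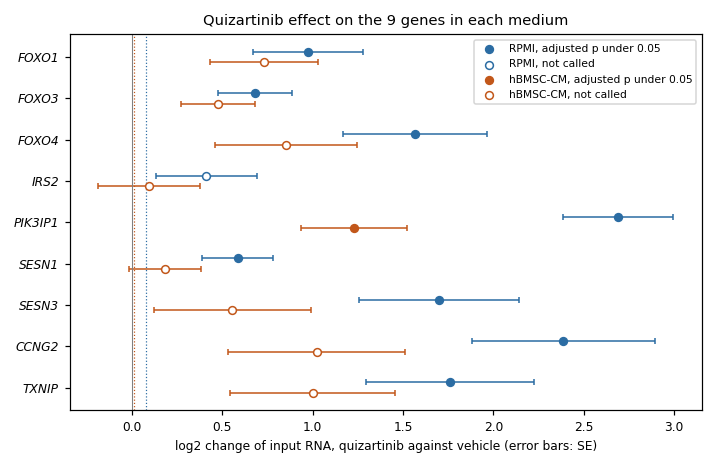
Log2 change of input RNA under quizartinib against vehicle for the 9 genes in RPMI (blue) and hBMSC-CM (orange), with error bars of 1 SE, filled points for adjusted p under 0.05, open points otherwise, and dotted lines at the median over all genes. All 18 points lie right of 0, and for each gene the hBMSC-CM point lies left of the RPMI point, although no difference between media passed the test.

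Whether the quizartinib effect differed between media was tested as an interaction. None of the 9 members was called, where 1.96% of all genes were (1.79% with the higher and 0.178% with the lower effect in hBMSC-CM), and 1 had an unadjusted p under 0.05. All 9 estimates were lower in hBMSC-CM, with a median of -0.72 against -0.04 over all genes. These 9 estimates come from the same 12 libraries and are not independent of each other. PIK3IP1 came closest, with a difference of -1.46 ± 0.41 (adjusted p = 0.055). It was called in 10 of 21 alternatives (adjusted p from 0.0024 to 0.16), among them DESeq2 (0.025), the replicate block (0.0099) and the fits without replicate 1 or 3 of hBMSC-CM vehicle (0.028 and 0.039) or replicate 3 of RPMI quizartinib (0.047). By limma voom no member was called. CCNG2 (-1.36 ± 0.69, adjusted p = 0.52) and SESN3 (-1.14 ± 0.61, adjusted p = 0.57) had estimates of similar size and larger errors, and SESN3 was called with a block in each fraction (adjusted p = 0.03).

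The media were also compared at equal treatment. Without drug, 1 of the 9 members was called, FOXO1, where 1.51% of all genes were and 1.3% as higher in hBMSC-CM. FOXO1 was 10.6, 8.87 and 6.88 CPM in hBMSC-CM vehicle and thus above all RPMI vehicle cultures. Its difference was 1.33 ± 0.31 (adjusted p = 0.014). The call was lost in the fit of only the libraries compared (adjusted p = 0.067) and without replicate 1 of hBMSC-CM vehicle (0.085) or replicate 2 (0.053) or 3 (0.13) of RPMI vehicle. IRS2 was 67.2, 77.0 and 92.0 CPM in hBMSC-CM vehicle, also above all RPMI vehicle cultures, with a difference of 0.65 ± 0.28 (adjusted p = 0.50) that was called with a block in each fraction (adjusted p = 0.027). The other 7 members differed by -0.43 to 0.32. Values of the media did not overlap for 2 members as higher and 1 as lower in hBMSC-CM. Of all genes 16.1% did not overlap, 7.97% as higher.

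Under quizartinib 3 members differed between media, where 8.16% of all genes were called, 6.11% as higher and 2.05% as lower in hBMSC-CM. FOXO1 was higher in hBMSC-CM at 13.2, 17.5 and 12.9 CPM, a difference of 1.08 ± 0.30 from RPMI quizartinib (adjusted p = 0.018). This call did not hold without replicate 2 of hBMSC-CM quizartinib (0.93, adjusted p = 0.11), without replicate 3 of RPMI quizartinib (1.05, adjusted p = 0.062) or with no filter on low counts (1.06, adjusted p = 0.063). PIK3IP1 was lower, with a difference of -1.42 ± 0.29 (adjusted p = 8.5e-04). SESN1 was lower too, at 32.3, 33.2 and 26.7 CPM in hBMSC-CM quizartinib, with a difference of -0.83 ± 0.20 (adjusted p = 0.0047), and these 2 calls held in all 15 alternatives.

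With the replicate block 5 members were called in that comparison, CCNG2 (-1.30, adjusted p = 0.0038) and SESN3 (-1.19, adjusted p = 0.001) being added as lower. The shares of all genes given for this comparison are from the fit without the block. Without the block CCNG2 differed by -1.32 ± 0.49 (adjusted p = 0.0998) and SESN3 by -1.16 ± 0.44 (adjusted p = 0.11). SESN3 values did not overlap between the media, while those of CCNG2 did because of replicate 3 of RPMI quizartinib, and without that culture CCNG2 was called (-1.62, adjusted p = 0.035). Values did not overlap for 2 members as higher and 3 as lower in hBMSC-CM, where 29.8% of all genes did not overlap, 15.7% as higher. FOXO4 (-0.63 ± 0.39), TXNIP (-0.44 ± 0.45), FOXO3 (-0.37 ± 0.21) and IRS2 (0.33 ± 0.28) had adjusted p-values of 0.35 to 0.70. The comparison under quizartinib and the comparison of quizartinib with vehicle use the same quizartinib libraries, so their values are not independent.

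Adding everolimus to quizartinib asked what mTOR complex 1 inhibition does on top of FLT3 inhibition. In RPMI none of the 9 members was called by edgeR, limma voom or DESeq2, and none had an unadjusted p under 0.05, where 0.00773% of all genes (1 gene) were called. The differences ran from -0.12 for SESN3 to 0.38 for CCNG2. In hBMSC-CM none was called by the same 3 tools either, where 0.24% of all genes were, and 2 had an unadjusted p under 0.05. PIK3IP1 was 20.5, 24.0 and 19.4 CPM under combo, above all 3 quizartinib cultures, with a difference of 0.94 ± 0.29 (adjusted p = 0.21). The replicate block called it (0.95, adjusted p = 0.039). CCNG2 was 29.0, 24.5 and 9.88 CPM under combo (0.99 ± 0.48, adjusted p = 0.81) and overlapped with quizartinib through replicate 3. TXNIP was 393.6, 410.1 and 488.4 CPM under combo, above all quizartinib cultures (0.72 ± 0.45, adjusted p = 1.0). Combo and quizartinib values in hBMSC-CM did not overlap for 2 members, both higher, as for 5.8% of all genes. All 9 differences in hBMSC-CM were positive, with a median of 0.28 against 0.00 over all genes.

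Everolimus alone was compared with vehicle in hBMSC-CM. No member was called by edgeR or limma voom, where edgeR called 0.41% of all genes, and DESeq2 called 1, PIK3IP1 (adjusted p = 0.044). By edgeR 2 members had an unadjusted p under 0.05, PIK3IP1 and TXNIP. PIK3IP1 was 9.65, 9.80 and 10.1 CPM under everolimus, above all vehicle cultures, with a difference of 1.06 ± 0.29 (adjusted p = 0.099). It was called without replicate 2 of hBMSC-CM vehicle, the highest vehicle culture (1.40, adjusted p = 0.011). TXNIP was 304.5, 324.9 and 310.7 CPM under everolimus, also above all vehicle cultures, with a difference of 1.26 ± 0.46 (adjusted p = 0.31). Over all 9 members the differences ran from -0.24 for SESN3, the 1 negative value, to the 1.26 of TXNIP. Everolimus and vehicle values did not overlap for 4 members, all higher (IRS2, PIK3IP1, CCNG2 and TXNIP), as for 14.2% of all genes. The close agreement of the 3 everolimus libraries noted above bears on such counts, and its part in them was not tested. These libraries also did not deviate together with the same-numbered vehicle libraries (r from -0.0898 to 0.0267). Mitochondrially encoded genes took 3.67 to 4.25% of their input counts, without the higher share of replicate 1 seen in the other conditions. The labels do not say whether these cultures were run apart, and if so the drug and the run cannot be told apart.

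The order of the 7 conditions by mean input level fell into a few forms. For 8 of the 9 members the lowest mean was in a vehicle condition, and this count was the same on CPM scaled by library size alone. The exception was SESN3, lowest under everolimus alone (9.84 ± 0.70 CPM, SD, n = 3), which overlapped with both vehicle conditions. FOXO3, FOXO4, PIK3IP1, SESN1 and CCNG2 were highest in RPMI combo, SESN3 in RPMI quizartinib, TXNIP and FOXO1 in hBMSC-CM combo and IRS2 under everolimus alone. Most neighbours in these orders overlapped between cultures, for FOXO3, FOXO4 and SESN3 every pair of neighbours.

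PIK3IP1 had the most separated order. Its means were 36.9 ± 1.35 CPM in RPMI combo, 29.6 ± 2.5 in RPMI quizartinib, 21.3 ± 2.4 in hBMSC-CM combo, 11.1 ± 1.9 in hBMSC-CM quizartinib, 9.85 ± 0.22 under everolimus, 4.74 ± 1.78 in hBMSC-CM vehicle and 4.60 ± 0.56 in RPMI vehicle. Only the pair of hBMSC-CM quizartinib with everolimus and the pair of vehicle conditions overlapped. SESN1 was split by medium instead, with all 3 RPMI means (36.5 to 61.9 CPM) above all 4 hBMSC-CM means (27.1 to 33.9 CPM), although RPMI vehicle overlapped with hBMSC-CM combo. FOXO1 ran the other way, with all 4 hBMSC-CM means (8.77 to 17.0 CPM) above the RPMI means (3.49 to 8.47 CPM), although RPMI quizartinib (6.33 to 7.30 CPM) and RPMI combo (5.31 to 11.1 CPM) both overlapped with hBMSC-CM vehicle, and RPMI combo also with everolimus alone. IRS2 was split by medium in the same direction, its 4 hBMSC-CM means being 78.7 to 105.7 CPM and its 3 RPMI means 50.3 to 75.9 CPM. Its RPMI combo cultures (64.9 to 85.4 CPM) overlapped with hBMSC-CM vehicle, quizartinib and combo, and its RPMI quizartinib cultures with hBMSC-CM vehicle.

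As a description over the 7 condition means of log2 input CPM, which share libraries and depth, PIK3IP1 and CCNG2 were most alike (Pearson r = 0.998), and each was the other's closest gene among 8432 genes of at least 10 CPM. FOXO3 and FOXO4 also ran together (r = 0.983), as did FOXO1 with IRS2 (r = 0.890), while FOXO1 and SESN1 did not (r = -0.313). The genes closest to TXNIP were FBXO32 (r = 0.995), a ubiquitin ligase subunit that is a textbook FOXO target in muscle, and HBP1 (r = 0.992), a transcriptional repressor. Closest to FOXO1 were JAML (0.997) and TLR4 (0.995), surface proteins of myeloid cells. Closest to SESN3 was SMAD3 (0.994), to SESN1 MSL3 (0.993), to FOXO3 PBX2 (0.997), to FOXO4 AC005332.6 (0.999) and to IRS2 ZUP1 (0.974). With 7 points and so many genes searched, high values arise readily and no p is given.

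Replicate numbers carried part of the spread in these genes. In the 6 conditions other than everolimus alone, replicate 3 had the lowest input level of FOXO1, FOXO3, FOXO4 and CCNG2 in 6 of 6 conditions. IRS2 was the reverse case, with replicate 1 lowest in 6 of 6. These counts were chosen after their values were seen, and the mitochondrial share given above also set replicate 1 apart.

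Polysome RNA was set against input RNA of the same cultures, first in RPMI vehicle. On this scale a positive value means that a message took a larger share of the heavy polysome library than of the input library. FOXO1, FOXO3 and IRS2 were lower in polysomes, PIK3IP1 was higher, and the other 5 members were not called, where 65.4% of all genes were called, 31.5% as higher and 33.9% as lower. PIK3IP1 was 1.90, 1.37 and 1.47 in the 3 cultures (log2 polysome minus input), all well above 0, with a fitted difference of 1.59 ± 0.30 (adjusted p = 2.6e-05). FOXO1 was -1.86, -2.08 and -1.21 (fitted -1.79 ± 0.34, adjusted p = 2.8e-05), and its polysome libraries held only 22 to 26 counts there. FOXO3 was -1.50, -1.23 and -0.98 (fitted -1.23 ± 0.21, adjusted p = 7.4e-06). IRS2 was -1.08, -1.62 and -1.02 (fitted -1.24 ± 0.29, adjusted p = 3.6e-04).

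SESN3 (-0.97 ± 0.44, adjusted p = 0.055), CCNG2 (-0.97 ± 0.51, adjusted p = 0.094) and FOXO4 (0.64 ± 0.39, adjusted p = 0.15) had the same sign in all 3 RPMI vehicle cultures. With each culture as a block, which pairs its 2 libraries, these 3 were called too (adjusted p = 7.2e-04, 0.0014 and 0.025), which made 7 members. No share of all genes is given for that fit, so the 7 are not set against a background. SESN1 was -0.36 ± 0.20 (adjusted p = 0.11). TXNIP was 0.38, -1.10 and 0.32 and so differed between cultures by more than between fractions. Scaled by library size alone, the median of all genes moved to -0.61 from -0.06, PIK3IP1 to 1.03, and the lower members by a like amount, so the values are relative to other messages and not absolute loading.

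**Figure D3:**
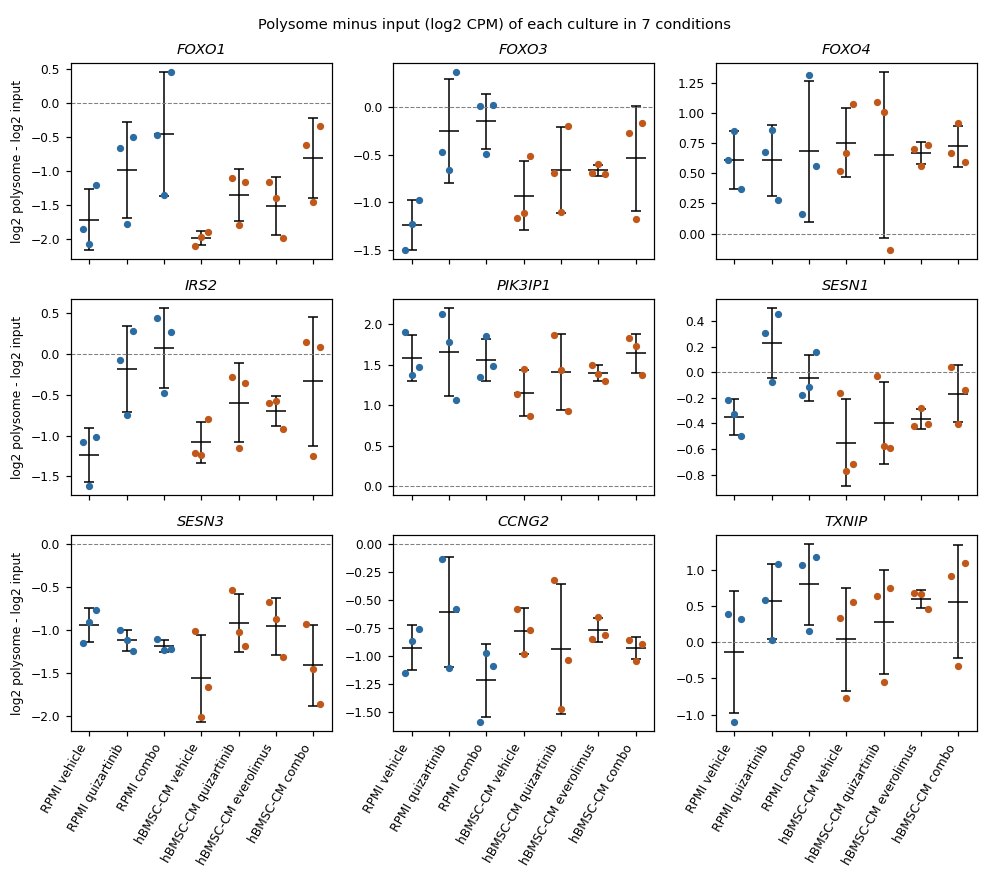
Log2 polysome minus log2 input CPM of the 9 genes in the 7 conditions, 1 point per culture in the order of replicates 1 to 3, blue for RPMI and orange for hBMSC-CM, with black bars for mean ± SD (n = 3) and a dashed line at 0. PIK3IP1 lay above 0 in all 21 cultures and SESN3 and CCNG2 below 0 in all 21, and the axes differ between genes.

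Whether quizartinib changed this share was tested as polysome change minus input change. In RPMI none of the 9 members was called by edgeR, limma voom or DESeq2, where edgeR called 1.55% of all genes (0.278% as higher and 1.28% as lower), and 3 members had an unadjusted p under 0.05 (FOXO3, IRS2 and SESN1). The median of all genes was 0.15 on this scale, so the members are read against that value, and their median was 0.58. FOXO3 moved from the values given above to -0.47, -0.66 and 0.37 under quizartinib, with no overlap, a difference of 0.99 ± 0.29 (adjusted p = 0.077). It was called with the replicate block (adjusted p = 0.037). In polysome CPM this was 14.05 to 19.85 under vehicle and 47.2 to 73.4 under quizartinib. Such values, like those of IRS2 below, are shares of a library and not amounts of message. The paper reports that RNA yield fell under quizartinib, and more so in heavy polysomes than in input.

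IRS2, whose input level was not called, was 19.5, 18.3 and 26.1 polysome CPM under vehicle and 57.6, 40.8 and 85.8 under quizartinib. Its polysome minus input was -0.08, -0.76 and 0.27 under quizartinib, above all vehicle cultures, with a difference of 1.11 ± 0.40 (adjusted p = 0.16) that was called only with a block in each fraction (adjusted p = 0.0069). SESN1 was 0.30, -0.07 and 0.46 under quizartinib, above all vehicle cultures (0.58 ± 0.28, adjusted p = 0.31). Values on this scale did not overlap for 3 members, all higher. The share of all genes without overlap was not computed for this scale, so that count has no background. FOXO1 (0.89 ± 0.45, adjusted p = 0.34) and TXNIP (0.60 ± 0.64, adjusted p = 0.74) overlapped. Over all 9 members the differences ran from -0.13 for SESN3, the 1 negative value, to the 1.11 of IRS2. PIK3IP1, the gene with the largest input change, was 2.13, 1.78 and 1.06 under quizartinib and overlapped with vehicle.

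In the other 7 comparisons of polysome against input no member was called by edgeR, limma voom or DESeq2, where edgeR called 0.0% of all genes in each and 93 to 624 genes had an unadjusted p under 0.05. Member medians there ran from -0.37 for the difference between media in the quizartinib effect to 0.30 for everolimus against vehicle, and 1 member value in all had an unadjusted p under 0.05, SESN1 for hBMSC-CM against RPMI under quizartinib. Replicate 2 had the lowest polysome minus input of TXNIP and of IRS2 in 6 of the 6 conditions other than everolimus alone, a count chosen after the values were seen. In hBMSC-CM combo, for example, TXNIP was 0.91, -0.33 and 1.10. The spread between cultures differed by gene. In RPMI vehicle the SD of polysome minus input was 0.84 for TXNIP and 0.20 for SESN3, and in hBMSC-CM combo 0.78 and 0.47. The part of such offsets in the results of this layer was not tested.

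Other genes of the pathway were taken from lists, beginning with 34 other FOXO-induced targets, of which 23 passed the filter. In RPMI 11 of the 23 rose under quizartinib and none fell, where 34.6% of all genes were called and 16.6% rose, with a median of 0.65 against 0.08 over all genes. In hBMSC-CM 6 of the 23 rose and none fell, where 5.46% of all genes rose and 6.84% fell (median 0.56 against 0.01). GABARAPL1, an autophagosome protein, was 5.91, 6.84 and 6.46 CPM in RPMI vehicle and 37.6, 51.8 and 48.4 CPM in RPMI quizartinib (log2 2.84 ± 0.30, adjusted p = 4.1e-09). FBXO32 was 2.98, 3.88 and 4.30 CPM and 20.8, 20.7 and 17.5 CPM (2.40 ± 0.23, adjusted p = 4.6e-10). In hBMSC-CM the largest rises were in BCL6, a transcriptional repressor (1.90 ± 0.35, adjusted p = 4.4e-04), and GABARAPL1 (1.51 ± 0.29, adjusted p = 6.8e-04). FBXO32 was also the only one of the 23 called under everolimus alone, at 13.3, 14.4 and 13.8 CPM against 4.47, 4.75 and 4.62 CPM in vehicle (1.59 ± 0.23, adjusted p = 1.9e-04). There 0.41% of all genes were called, and the limit given above for everolimus alone holds for this call too. None of the 23 was called for combo against quizartinib in either medium, where 0.00773% of all genes were called in RPMI and 0.24% in hBMSC-CM.

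**Figure D4:**
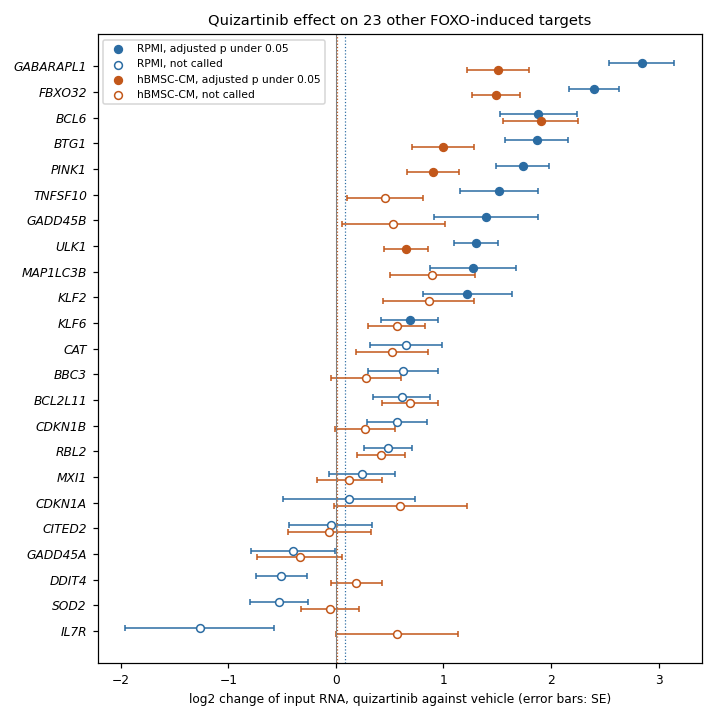
Log2 change of input RNA under quizartinib against vehicle for 23 other FOXO-induced targets in RPMI (blue) and hBMSC-CM (orange), with error bars of 1 SE, filled points for adjusted p under 0.05, open points otherwise, and dotted lines at the median over all genes. In RPMI 11 points are filled, all right of 0 and led by GABARAPL1 at 2.84, and in hBMSC-CM 6 are filled, all of them genes also filled in RPMI.

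Between media at equal treatment the list did not move as a block. IL7R, the interleukin 7 receptor, was 0.40, 0.63 and 0.91 CPM in RPMI vehicle and 8.35, 6.54 and 7.72 CPM in hBMSC-CM vehicle (3.54 ± 0.65, adjusted p = 9.8e-04). DDIT4, a stress-induced inhibitor of mTOR complex 1, was the other member called there (1.46 ± 0.24, adjusted p = 2.5e-04), where 1.51% of all genes were called. Under quizartinib IL7R (5.38 ± 0.72, adjusted p = 1.6e-06), DDIT4 (2.16 ± 0.25, adjusted p = 9.4e-08) and BCL6 (1.21 ± 0.34, adjusted p = 0.02) were higher in hBMSC-CM. KLF2, a transcription factor of quiescent lymphocytes, was lower (-1.31 ± 0.42, adjusted p = 0.045). Of all genes 6.11% were higher and 2.05% lower in that comparison. The KLF2 call was lost without replicate 3 of RPMI quizartinib (-0.81, adjusted p = 0.37) or any 1 of the hBMSC-CM quizartinib cultures (adjusted p = 0.066 to 0.21). The BCL6 call was lost without replicate 1 of hBMSC-CM quizartinib (0.087) or replicate 2 (0.11) or 3 (0.061) of RPMI quizartinib.

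Of 2 FOXO-repressed targets, CCND1 was too low to test and CCND2, cyclin D2, fell. CCND2 was 72.6, 80.1 and 69.2 CPM in RPMI vehicle and 19.3, 17.7 and 14.7 CPM in RPMI quizartinib (-2.10 ± 0.17, adjusted p = 8.3e-12). In hBMSC-CM it was 69.0, 58.1 and 60.5 CPM against 39.2, 41.3 and 36.8 CPM (-0.68 ± 0.16, adjusted p = 0.0053). The 2 effects differed between media by 1.43 ± 0.23 (adjusted p = 2.3e-04), a test that no member of the induced list and none of the 9 genes passed.

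Of 24 tested genes of the PI3K-AKT pathway upstream of FOXO, 5 rose and 3 fell under quizartinib in RPMI (median 0.41 against 0.08 over all genes). With 34.6% of all genes called there, this count was near the background and is no result about the list. The kinase SGK1, which like AKT can phosphorylate FOXO proteins, was higher by 1.44 ± 0.55 (adjusted p = 0.039), a call lost without replicate 2 of RPMI quizartinib (0.87, adjusted p = 0.29) or replicate 1 (0.12) or 3 (0.19) of RPMI vehicle, by limma voom (0.054) and with only the libraries compared (0.056). FLT3 itself was higher by 1.05 ± 0.26 (adjusted p = 0.0017), and IGF1R (-0.99 ± 0.27, adjusted p = 0.0035) and MLST8, a subunit shared by both mTOR complexes (-0.88 ± 0.22, adjusted p = 0.0021), were lower. Among the other risers, named after their values were seen, were the insulin receptor INSR (1.01) and TSC1 (0.59), of which TSC1 lost its call whichever RPMI vehicle or quizartinib culture was left out. The remaining faller, AKT1 (-0.70), lost its call without replicate 2 of RPMI quizartinib (adjusted p = 0.081) or replicate 1 (0.054) or 3 (0.067) of RPMI vehicle. In hBMSC-CM 2 of the 24 rose, among them PIK3R5 (0.66), and 1 fell, MLST8 (-0.78). With 5.46% of all genes higher and 6.84% lower there, these counts were near the background too and are no result about the list. Both named genes lost their call without replicate 3 of hBMSC-CM vehicle (adjusted p = 0.13 and 0.22), PIK3R5 also without replicate 1 of hBMSC-CM vehicle and, like MLST8, without replicate 1 or 2 of hBMSC-CM quizartinib.

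Among 16 partners and regulators of FOXO proteins, 2 rose and 5 fell in RPMI, where 34.6% of all genes were called and 16.6% rose (median -0.35 against 0.08). The acetyltransferases CREBBP (1.14 ± 0.28, adjusted p = 0.0015) and EP300 (0.92 ± 0.35, adjusted p = 0.037) rose, the latter losing its call without replicate 1 or 2 of RPMI quizartinib or replicate 2 or 3 of RPMI vehicle (adjusted p = 0.088 to 0.14). PRMT1, an arginine methyltransferase (-2.04 ± 0.24, adjusted p = 2.4e-08), and SKP2, a ubiquitin ligase subunit that targets FOXO1 (-1.63 ± 0.27, adjusted p = 8.8e-06), fell most. The other 3 that fell were the 14-3-3 genes YWHAE (-0.96), YWHAG (-0.89) and YWHAH (-0.83), named after their values were seen. In hBMSC-CM 3 of the 16 fell, PRMT1 (-1.14), SKP2 (-0.92) and YWHAH (-0.67), and none rose, where 6.84% of all genes fell and 5.46% rose. SKP2 lost its call without replicate 1 (adjusted p = 0.054) or 3 (0.11) of hBMSC-CM quizartinib or replicate 1 of hBMSC-CM vehicle (0.10). In the polysome layer the kinase STK4 was the only gene of these lists called, higher under quizartinib in RPMI by 1.02 ± 0.26 (adjusted p = 0.036). It lost that call when any culture but replicate 2 of RPMI quizartinib was left out (adjusted p = 0.056 to 0.52), with the culture block (0.068), with RLE factors (0.066), with no filter (0.34) and with only the libraries compared (0.29).

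Of 6 tested relatives of the members, 3 rose in RPMI, where 16.6% of all genes rose, and none in hBMSC-CM, where 5.46% did (list medians 0.91 and 0.37 against 0.08 and 0.01 over all genes). These were the arrestin-like ARRDC3 (1.69 ± 0.51, adjusted p = 0.0094), a relative of TXNIP, and the cyclins CCNG1 (0.95 ± 0.29, adjusted p = 0.0099) and CCNI (0.95 ± 0.26, adjusted p = 0.0036). ARRDC3 lost its call without replicate 3 of RPMI quizartinib (adjusted p = 0.056) or replicate 1 of RPMI vehicle (0.058), and CCNG1 without replicate 1 of RPMI quizartinib (0.061). Of the 4 TXNIP partners, the glucose-sensing factors MLXIP (0.68 ± 0.18, adjusted p = 0.0037) and MLXIPL (2.40 ± 0.84, adjusted p = 0.024) were higher and thioredoxin, TXN (-1.09 ± 0.39, adjusted p = 0.028), lower under quizartinib in RPMI. The list median was 0.23 against 0.08 over all genes, of which 34.6% were called there. MLXIPL was not called by limma voom (adjusted p = 0.13) and lost its call without replicate 2 or 3 of RPMI quizartinib or replicate 1 or 3 of RPMI vehicle (0.058 to 0.13). TXN lost its call without replicate 2 or 3 of RPMI quizartinib or replicate 1 or 2 of RPMI vehicle (adjusted p = 0.054 to 0.089). MLXIP was also the 1 partner called in hBMSC-CM (0.70 ± 0.18, adjusted p = 0.01), where 12.3% of all genes were called. That MLXIP call was lost without replicate 1 of hBMSC-CM vehicle (adjusted p = 0.063). Among the 8 myeloid markers 4 rose and none fell under quizartinib in RPMI (median 0.77), where 16.6% of all genes rose. In hBMSC-CM 2 of the 8 rose and none fell (median 0.20), where 5.46% of all genes rose. The part of these markers in the change of the members was not tested.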

How the data were processed

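The 21 MOLM-13 cultures gave 42 poly(A) RNA-seq libraries (input and heavy polysomes, 7 conditions, 3 replicates). The authors trimmed paired reads, aligned them to hg38 (STAR 2.6.0a per the submitters' notes; Ensembl release 96) and tallied the reads of each gene. The deposited table holds raw counts with no normalization, and the strand setting of the counting is not given in the sources used here. Rows sharing a name were summed (58884 rows, 57353 names; 0 columns unused). Genes with a mean count and a mean CPM of at least 1 were tested (12939 genes, 99.8% of counts).

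All libraries entered 1 robust quasi-likelihood fit in edgeR 4.0.16 (R 4.3.3) with TMM factors and 14 group means, checked on simulated data. Benjamini-Hochberg adjusted p under 0.05 over all genes was called. The polysome layer is the interaction with the fraction. Log2 CPM used a prior count of 2. Poly(A) selection leaves out short-tailed messages, no spike-in was used here, and reads carry no molecular identifiers and so are not independent molecules. In bulk samples fewer expressing cells and less RNA per cell cannot be told apart.

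Same-numbered replicates of the groups compared deviated together from their group means in 6 of the 7 pairs of groups (r from 0.156 to 0.715), so blocked values are printed where they change a call. For everolimus against vehicle they did not (r from -0.0898 to 0.0267). The input and polysome libraries of the same condition and number were taken as 1 culture, which the labels do not state. Their deviations from the group means correlated weakly (r from -0.0438 to 0.303). Replicates differed by more than sampling noise (chi-square per gene of at least 4.96).

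Members are named with their values or summarised by their range or median in each comparison. From each list the called genes with the 2 largest rises and falls could be named. Members and lists were chosen with earlier results of these data known. Alternatives were limma voom (limma 3.58.1), DESeq2 1.42.0, RLE factors, library size only, no filter, a stricter filter (mean CPM of 10 or more, 8522 genes), a fit of the compared libraries alone, a replicate block, a replicate block within each fraction, a culture block and each culture left out. Small exon overlaps with opposite-strand lncRNAs exist for SESN1 (4.99% of exon bases), IRS2 (1.41%), PIK3IP1 (0.946%) and SESN3 (0.927%). The values of 1 gene of the PI3K-AKT list are not reported here.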

Additional observations from a re-analysis of the deposited data

How the results depend on the processing

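The count of members called kept within 1.5 times of its value for quizartinib in RPMI in every alternative (8, and 6 to 8 when 1 culture was left out, 6 with no filter). Shares of all genes called were given for the main fit only, so counts under an alternative are not set against a background. FOXO1 has a mean under 10 CPM and drops out of the stricter filter. For quizartinib in hBMSC-CM (1 member) the count was 2 by limma voom, 4 with no filter, 5 with the replicate block, 6 with that block within each fraction and 1 without any 1 culture. For hBMSC-CM against RPMI under vehicle (1) it was 0 with the stricter filter and with only the libraries compared, 2 with the replicate block within each fraction and 0 to 1 without 1 culture. Under quizartinib (3) it was 5 with either replicate block and 2 to 3 without 1 culture. For combo in hBMSC-CM (0) it was 1 with either replicate block. For everolimus (0) it was 1 by DESeq2, 2 with no filter, 2 with either replicate block (PIK3IP1, adjusted p = 0.014, and TXNIP, 0.024), where the numbers do not pair the samples, and 0 to 1 without 1 culture. For the difference between media (0) it was 1 by DESeq2, with library size only, with no filter, with the stricter filter, with only the libraries compared and with the replicate block, 2 with that block within each fraction and 0 to 1 without 1 culture. For polysome minus input under quizartinib in RPMI (0) it was 1 with the replicate block and 2 within each fraction. For polysome against input in RPMI vehicle (4) it was 7 with library size only, the replicate block and the culture block. The replicate block changed no other call of a member. The cause of these changes was not tested. IRS2 under quizartinib in hBMSC-CM (0.10) ranged from -0.042 to 0.22 without 1 culture, turning to -0.042 without hBMSC-CM quizartinib replicate 3 and to -0.01 without hBMSC-CM vehicle replicate 1. No called member value changed sign in any alternative, while 112 of 2424 alternative member values, called in neither fit, did. On library size only, 32 of 63 input levels moved by more than 1 SD. The 3 replicates per group, and 22 to 26 FOXO1 counts in RPMI vehicle polysomes, limit precision.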
